A study of Mus musculus with 4 samples.

Results

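The 10 genes examined here, which mark mast cells and basophils, were followed in hematopoietic stem cells sorted from a mouse model of myelodysplastic syndrome and from wild-type mice. Each gene was looked up by its symbol and represented by its transcript with the highest total count. All 10 were present among 24016 gene symbols. RNA had been sequenced from mouse bone marrow cells that lacked lineage markers, CD34 and Flt3 and carried Sca-1, c-Kit and CD150, a stem cell gate. The NHD13 group had 2 libraries and the wild-type (WT) group had 2, all from C57BL/6 mice at 4 months of age. The NHD13 transgene joins the nuclear pore gene NUP98 to the homeobox gene HOXD13, and WT mice lack it. As background, that transgene is driven in blood cells by regulatory sequence of the Vav gene, and the mice develop a myelodysplastic syndrome.

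With 1 transcript per gene, the NHD13 libraries held 35025974 and 48423689 counts and the WT libraries 42664018 and 37070939 counts. Transcripts assigned to mouse Hoxd13 had 65 and 78 counts in NHD13 and 14 and 3 in WT (edgeR adjusted p 0.0893), while Nup98 stood at 160 and 162 CPM (counts scaled to library size) in NHD13 and 160 and 158 CPM in WT. How reads of the human transgene align to these mouse genes was not measured. The sort gene Kit was at 991 and 1122 CPM in NHD13 and 1130 and 1271 CPM in WT, and Slamf1, which encodes CD150, was at 143 and 117 CPM in NHD13 and 119 and 134 CPM in WT. Other sort genes differed more. Ly6a, which encodes Sca-1, was at 131 and 77.7 CPM in NHD13 and 273 and 200 CPM in WT (adjusted p 0.0921 by edgeR, 0.000400 by DESeq2). Cd34 was at 51.6 and 21.4 CPM in NHD13 and 120 and 138 CPM in WT (0.0796 by edgeR, 2.50e-05 by DESeq2). Flt3 was at 59.0 and 4.33 CPM in NHD13 and 10.4 and 15.4 CPM in WT (0.521 by edgeR). The labels do not say how many animals stand behind a library, so errors and p-values cover the variation among these libraries, which may be technical.

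Mast cells and basophils are granule-bearing blood-derived cells of allergy and defence against parasites. Both carry the high-affinity receptor for IgE, built from an IgE-binding alpha chain (Fcer1a), a signal-amplifying beta chain (Ms4a2) and a signalling gamma chain (Fcer1g), and both store histamine and proteases in granules. They arise in bone marrow from progenitors that share early steps with the erythroid and megakaryocyte lineages, under transcription factors of the GATA family, and in mast cells Mitf switches on granule and receptor genes.

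The promoters of the members with the largest differences are shown here because their log2 fold changes had opposite signs. Each window runs from 250 bases before to 50 bases after a RefSeq transcript start in build GRCm38.p6, 5′ to 3′ on the gene's strand. Capitals mark GATAA on either strand (TTATC on the other), the core bound by GATA factors, and CATGTG on either strand (CACATG on the other), an E-box form bound by Mitf. The Fcer1a window is chr1:173227180-173227479 on the minus strand, that of Ms4a2 is chr19:11623670-11623969 on the minus strand and that of Cpa3 is chr3:20242132-20242431 on the minus strand. Il4 has a coding start, with the window chr11:53618616-53618915 on the minus strand, and an internal start of a non-coding transcript, with the window chr11:53617289-53617588 on the minus strand.
Fcer1a: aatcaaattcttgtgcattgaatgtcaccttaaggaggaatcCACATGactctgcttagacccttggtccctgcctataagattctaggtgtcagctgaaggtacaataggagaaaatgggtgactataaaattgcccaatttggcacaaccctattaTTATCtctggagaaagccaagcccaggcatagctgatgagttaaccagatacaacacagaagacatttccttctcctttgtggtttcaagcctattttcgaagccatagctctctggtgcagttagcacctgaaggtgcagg
Ms4a2: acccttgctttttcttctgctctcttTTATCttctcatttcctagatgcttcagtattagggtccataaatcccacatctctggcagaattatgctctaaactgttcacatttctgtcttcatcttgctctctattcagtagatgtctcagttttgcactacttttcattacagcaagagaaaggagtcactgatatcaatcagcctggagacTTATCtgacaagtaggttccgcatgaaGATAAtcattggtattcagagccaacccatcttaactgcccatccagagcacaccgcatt
Cpa3: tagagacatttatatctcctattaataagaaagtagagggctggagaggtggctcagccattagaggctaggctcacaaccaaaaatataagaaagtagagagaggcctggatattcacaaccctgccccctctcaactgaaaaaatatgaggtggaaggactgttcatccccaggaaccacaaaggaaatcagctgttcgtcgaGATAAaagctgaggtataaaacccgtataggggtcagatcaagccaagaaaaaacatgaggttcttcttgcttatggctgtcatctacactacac
Il4, coding start: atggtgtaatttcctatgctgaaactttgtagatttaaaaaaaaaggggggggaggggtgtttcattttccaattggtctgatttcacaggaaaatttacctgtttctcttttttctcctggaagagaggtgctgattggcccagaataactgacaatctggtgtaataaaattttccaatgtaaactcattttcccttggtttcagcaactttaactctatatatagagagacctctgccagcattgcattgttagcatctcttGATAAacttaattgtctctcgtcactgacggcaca
Il4, internal start: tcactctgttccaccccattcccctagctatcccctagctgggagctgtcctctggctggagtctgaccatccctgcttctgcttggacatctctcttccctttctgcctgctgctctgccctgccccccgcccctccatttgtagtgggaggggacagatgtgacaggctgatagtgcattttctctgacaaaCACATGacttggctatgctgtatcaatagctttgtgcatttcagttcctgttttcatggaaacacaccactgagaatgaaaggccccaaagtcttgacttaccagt
The Ms4a2 window held 3 matches to GATAA, and the windows of Fcer1a, Cpa3 and the coding Il4 start held 1 each. The internal Il4 start had none, and it had 1 CATGTG match, as did Fcer1a. All 10 members matched the promoter table, with 14 windows, and 9 of these held GATAA. Of all 32851 windows there, 25.4 percent held it. CATGTG was in 3 of the 14 windows and in 14.2 percent of all windows, and CACGTG, another E-box form, was in 0 of the 14 and in 7.15 percent of all. Fcer1a, lower in NHD13, and Cpa3, higher in NHD13, thus both held GATAA, and a match in such a window is only a description of its letters.

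In NHD13 cells the IgE receptor chains differed in direction. The alpha chain Fcer1a fell to 1 read in all, Ms4a2 and Fcer1g stood higher in both NHD13 libraries, and the cytokine gene Il4 fell by more than an order of magnitude. By edgeR's quasi-likelihood test with Benjamini-Hochberg adjustment over 14853 genes, 2 of the 10 members were called at an adjusted p under 0.05, Il4 and Fcer1a, both lower and 0 higher. Over all genes tested 4.28 percent were called in either direction, 2.22 percent lower and 2.07 percent higher. The unadjusted p was under 0.05 for 5 members and for 26.8 percent of all genes. By DESeq2 6 members were called, beside 17.5 percent of all genes, and by limma-voom 2 members, beside 4.17 percent of all. EdgeR called 2 members and 1.69 percent of all genes without NHD13 library 1, 4 members and 6.35 percent of all genes without NHD13 library 2, and 1 member and 0.72 percent of all genes with the replicate number as a block. With either WT library left out it called 0 members and 0 of all genes, although some had an unadjusted p under 0.05, namely 4 members and 15.4 percent of all genes without WT library 1, and 6 members and 16.3 percent of all genes without WT library 2. DESeq2 called 3 members and 6.29 percent of all genes without WT library 1, and 4 members and 6.69 percent of all genes without WT library 2. A fit with 1 library left out takes the spread between libraries from the group that keeps 2. Its calls leave out the spread of the other group. The NHD13 libraries lay above both WT libraries for 4 members (Ms4a2, Fcer1g, Cpa3 and Hdc), below both for 3 (Fcer1a, Il4 and Mitf), and overlapped them for 3 (Mcpt8, Prss34 and Il1rl1). Among all genes tested, 30.1 percent lay above and 30.3 percent below. All 10 members passed the filter on low counts, Fcer1a only through the WT libraries, so its direction was in part a condition of being tested. In RNA from sorted bulk cells, fewer cells of a type and less RNA per cell cannot be told apart.

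**Figure D1:**
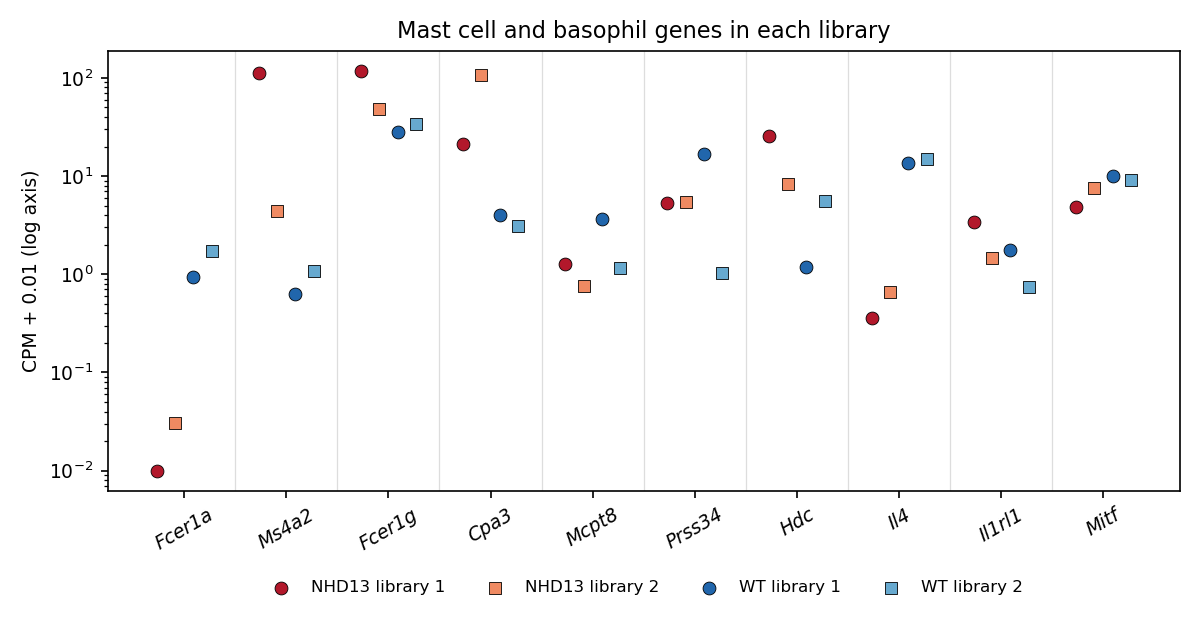
CPM of the 10 genes on a log axis (0.01 CPM added so that a count of 0 can be drawn), with NHD13 libraries in red and orange and WT libraries in blue. Ms4a2 stood at 111 CPM in NHD13 library 1 against 4.45 in NHD13 library 2, while Il4 was below 1 CPM in both NHD13 libraries and above 13 CPM in both WT libraries.

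Fcer1a, whose product binds IgE, had 0 and 1 counts in NHD13 and 40 and 62 in WT. In CPM these were 0 and 0.0204 in NHD13 and 0.920 and 1.70 in WT. The gene was thus at or below the limit of detection in NHD13 and above it in both WT libraries. In NHD13, 3 counts correspond to 0.0873 and 0.0612 CPM per library. With 1 count in NHD13 and 102 in WT, WT was 106 times higher after scaling, with an exact binomial 95% counting interval of 18.6 to 4237. The fitted log2 fold change was -6.47 ± 1.01 (SE), with an adjusted p of 0.0444 by edgeR, 0.0479 by limma-voom and 0.00165 by DESeq2. The edgeR call was lost when any library was left out (adjusted p 0.0655 to 0.228, highest without WT library 2) and with library totals in place of TMM scaling (0.05003) or transcripts summed (0.0583).

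Ms4a2, the beta chain, had 3813 and 218 counts in NHD13 and 27 and 39 in WT. That is 111 and 4.45 CPM in NHD13 and 0.621 and 1.07 CPM in WT. Both NHD13 libraries were above both WT libraries, but NHD13 library 1 was 24.9 times NHD13 library 2. The log2 fold change was 6.10 ± 1.72 (SE) and was not called by edgeR (adjusted p 0.115, or 0.499 by limma-voom and 0.00434 by DESeq2). Without NHD13 library 1 it was 2.41 and without NHD13 library 2 it was 7.06. In these fits only the WT libraries give a spread. The 4 annotated Ms4a2 transcripts had 3776 to 3813 counts in NHD13 library 1, so the choice of transcript did not move these values.

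Fcer1g, the gamma chain that also serves other Fc receptors and C-type lectins, was measured in every library well above the detection limit. It had 118 and 48.0 CPM in NHD13 and 28.3 and 34.02 CPM in WT, with averages of 83.2 ± 49.7 in NHD13 and 31.2 ± 4.04 in WT (SD, n = 2 each). The NHD13 libraries were higher without overlap, and library 1 was 2.46 times library 2. The log2 fold change was 1.42 ± 0.44 (SE; adjusted p 0.129 by edgeR, 0.00340 by DESeq2). It was 0.63 without NHD13 library 1 and 1.93 without NHD13 library 2, fits in which only the WT libraries give a spread.

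**Figure D2:**
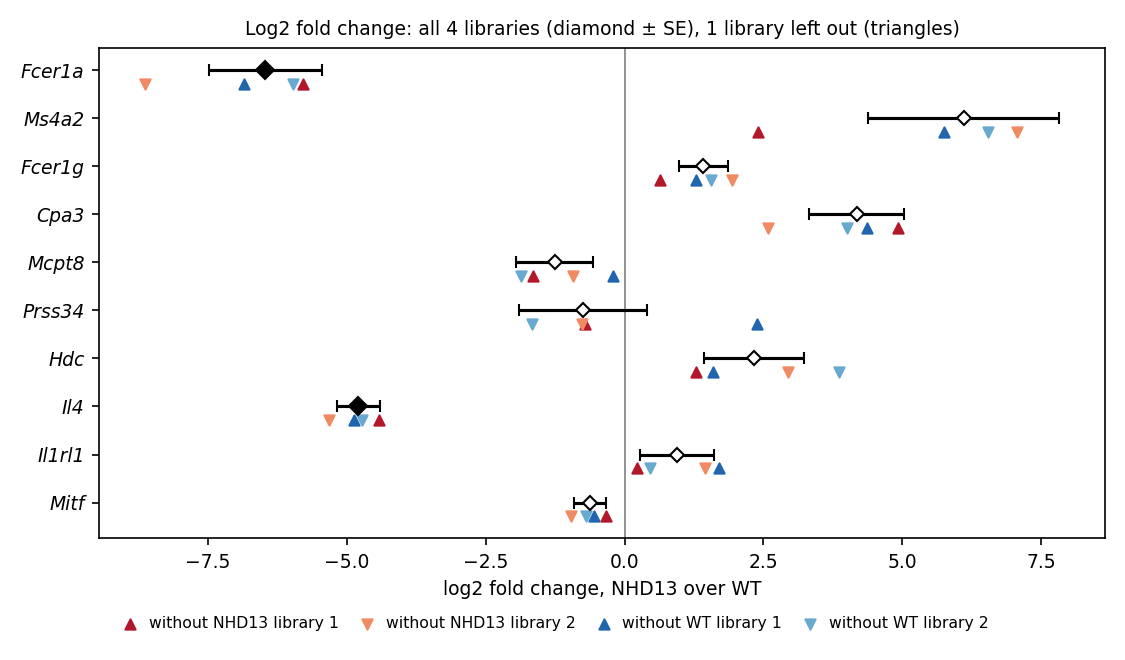
Log2 fold change of NHD13 over WT for each gene, with diamonds for all 4 libraries (bars are the SE, filled where the adjusted p was under 0.05) and triangles for fits with 1 library left out. Prss34 crosses 0 without WT library 1, at 2.39, and Il4 stays between -5.33 and -4.43.

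Cpa3 encodes carboxypeptidase A, a granule protease of mast cells and basophils and of their progenitors. It had 21.3 and 107 CPM in NHD13 and 3.98 and 3.09 CPM in WT. Here NHD13 library 2 was the higher, at 5.03 times library 1, the reverse of Ms4a2, and both were above WT. The log2 fold change was 4.18 ± 0.86 (SE; adjusted p 0.0689 by edgeR and 0.000867 by DESeq2). By edgeR it was 4.93 without NHD13 library 1 and 2.59 without NHD13 library 2. It was 4.37 without WT library 1 and 4.01 without WT library 2. With 1 NHD13 library left, only the WT libraries give a spread, so the difference between the NHD13 libraries does not enter the fit. The microRNA gene Mir7007 lies within Cpa3 on the same strand and had 4 and 13 counts in NHD13 and 7 and 6 in WT.

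Mcpt8 and Prss34 encode serine proteases of basophil granules, and neither was called. Mcpt8 had 1.25 and 0.755 CPM in NHD13 and 3.63 and 1.15 CPM in WT. Prss34 had 5.27 and 5.45 CPM in NHD13 and 16.9 and 1.01 CPM in WT. For both genes WT library 1 was the highest library and the groups overlapped. Prss34 differed 16.7-fold between the WT libraries and 1.03-fold between the NHD13 libraries. Its log2 fold change was -0.75 ± 1.16 (SE; adjusted p 0.723) and turned to 2.39 without WT library 1 (adjusted p 0.224, and 0.0197 by DESeq2). Mcpt8 had -1.26 ± 0.69 (SE; adjusted p 0.312), and -0.21 without WT library 1.

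Hdc encodes histidine decarboxylase, the enzyme that makes histamine. It had 25.8 and 8.25 CPM in NHD13 and 1.17 and 5.61 CPM in WT. The groups did not overlap, although the lower NHD13 library was close to the higher WT library. The log2 fold change was 2.33 ± 0.91 (SE; adjusted p 0.187 by edgeR, 0.0187 by DESeq2). Across the fits with 1 library left out it ran from 1.29 without NHD13 library 1 to 3.86 without WT library 2, and edgeR called it in none of them.

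Il4 encodes interleukin 4, the cytokine of type 2 immunity that basophils can release. It had 12 and 32 counts in NHD13 and 587 and 545 in WT, or 0.349 and 0.653 CPM in NHD13 and 13.5 and 14.9 CPM in WT. Both WT libraries were close together and both NHD13 libraries were far below them. The log2 fold change was -4.79 ± 0.39 (SE; adjusted p 0.0136 by edgeR, 9.70e-27 by DESeq2, 0.0226 by limma-voom). EdgeR called it with NHD13 library 1 left out (adjusted p 0.0240) and with NHD13 library 2 left out (0.0167). It did not with WT library 1 left out (0.148) or WT library 2 left out (0.133), fits in which it called 0 of all genes tested, although 2332 and 2605 had an unadjusted p under 0.05. Il4 was among the 955 and 1067 genes called by DESeq2 in those fits.

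These Il4 counts belong to a transcript annotated in RefSeq as non-coding (NR_027491). GENCODE lists the matching transcript as protein-coding. Its first exon of 258 bases lies inside the gene, starting 1331 bases downstream of the coding start in GENCODE, and the window of this internal start was shown above. The remaining 347 bases are shared with the coding transcript (NM_021283), which has 243 bases of its own. The coding transcript had 9 and 32 counts in NHD13 and 441 and 406 in WT, so it too was lower in both NHD13 libraries. Fitted among all transcripts, its log2 fold change was -4.50 ± 0.50 (SE; edgeR adjusted p 0.0292). The non-coding transcript exceeded the coding one by 3 and 0 counts in NHD13 and by 146 and 139 in WT. If a read of the shared exons was counted for both transcripts, at least 146 and 139 WT reads touched the internal first exon.

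**Figure D3:**
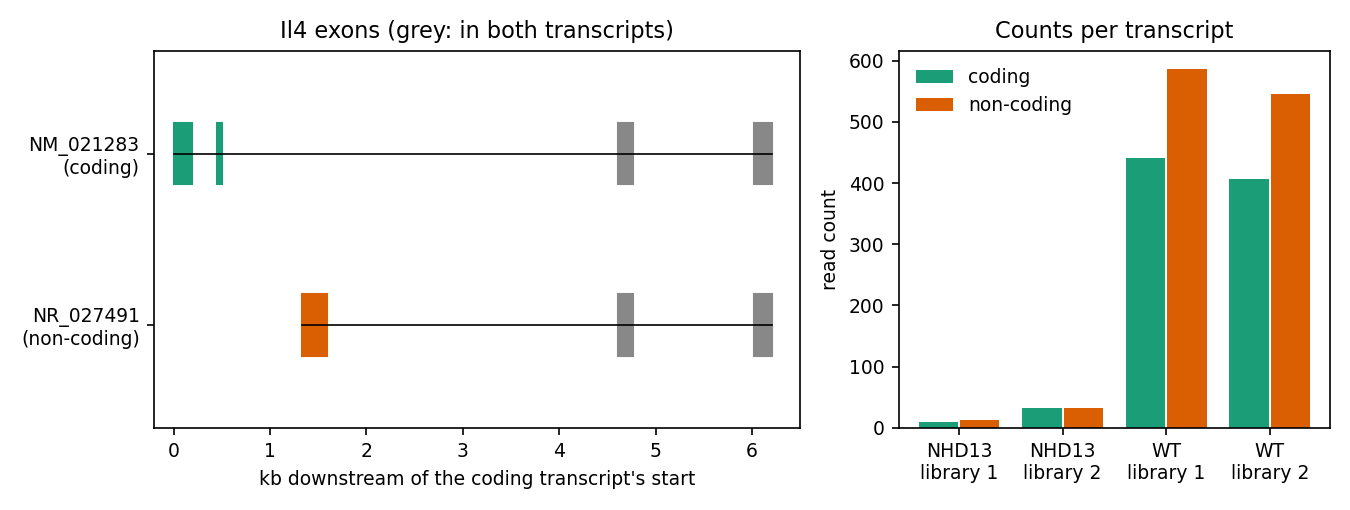
Left, exons of both Il4 transcripts by distance from the coding start in kilobases, grey where shared; right, read counts of each transcript per library. In NHD13 both transcripts had 32 counts or fewer, and in WT the non-coding transcript had 587 and 545 counts against 441 and 406 for the coding one.

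Il1rl1 encodes the receptor for interleukin 33. It had 3.41 and 1.45 CPM in NHD13 and 1.77 and 0.739 CPM in WT, and the groups overlapped. The log2 fold change was 0.94 ± 0.67 (SE; edgeR adjusted p 0.425). The transcript used, of 5302 bases, encodes the membrane-bound form. A shorter transcript of 2661 bases, which shares the first coding exons and encodes a soluble form, had 21 and 27 counts in NHD13 and 34 and 16 in WT. The long transcript had 117 and 71 counts in NHD13 and 77 and 27 in WT. Per base, the long transcript stood at 2.80 and 1.32 times the 2661-base transcript in NHD13. In WT it stood at 1.14 and 0.847 times, from counts of these few reads. Another annotated transcript, of 1216 bases, had 21 and 24 counts in NHD13 and 34 and 16 in WT. These nearly equal the counts of the 2661-base transcript, of which 1425 bases are in no other Il1rl1 transcript. The per-base ratio thus depends on the length used, and it does not measure membrane-bound against soluble form.

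Mitf encodes a transcription factor that mast cells need. It had 4.86 and 7.49 CPM in NHD13 and 9.98 and 9.09 CPM in WT. Both NHD13 libraries were lower, and the log2 fold change of -0.62 ± 0.29 (SE) was not called (adjusted p 0.244 by edgeR, 0.260 by DESeq2). The 3 annotated Mitf transcripts, which start at separate promoters, gave -0.61 to -0.63. Their counts were nearly equal, at 167, 165 and 160 in NHD13 library 1, so these are not separate measurements.

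Levels of different genes were compared per kilobase of transcript. In NHD13, Fcer1g (176 and 71.3 CPM per kilobase), Ms4a2 (110 and 4.405) and Cpa3 (14.7 and 73.9) were the highest by mean, and their ranges overlapped. Fcer1a was lowest in NHD13 at 0 and 0.0204 CPM per kilobase. In WT, Fcer1g was highest at 42.0 and 50.5 CPM per kilobase, followed by Il4 at 22.3 and 24.7, and the ranges of these genes did not touch. Prss34 came next on average at 13.9 and 0.830, a range that overlapped those of Mcpt8, Cpa3, Mitf, Hdc, Fcer1a and Ms4a2.

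The members did not share a library. Between the NHD13 libraries 5 members differed by over 2-fold, not counting Fcer1a, which was at 0 in one of them, and between the WT libraries 4 did. Among all genes tested 12.2 percent differed by over 2-fold between the NHD13 libraries and 8.75 percent between the WT libraries. Ms4a2, Fcer1g, Hdc and Il1rl1 were higher in NHD13 library 1, and Cpa3 in NHD13 library 2. Markers of other cells also differed between the libraries. The summed level of 10 neutrophil genes was 3759 and 1064 CPM in NHD13 and 391 and 329 CPM in WT, with 2 of 10 called higher (Elane and Mpo) and none at 0, and S100a8 alone was at 640 and 80.1 CPM in NHD13 and 78.7 and 69.9 CPM in WT. T and NK cell genes summed to 186 and 214 CPM in NHD13 and 62.7 and 65.2 CPM in WT, with 1 of 8 tested called higher. That was Nkg7, at 153 and 82.2 CPM in NHD13 and 18.9 and 18.04 CPM in WT, and Nkg7 and Klrb1c made up most of the sums. Cd3e was at 0.728 and 36.3 CPM in NHD13 and 0.713 and 0.493 CPM in WT, and Cd3g and Il7r were likewise high in NHD13 library 2 alone. Cd3d, Cd2, Gzma, Ncr1 and Cd8a stayed under 1 CPM in every library, and Cd8a was at 0 in NHD13 library 1 and WT library 2. Their part in the values of Ms4a2 and Cpa3 was not tested. The summed genes of the stem cell gate were at 2199 and 2548 CPM in NHD13 and 3521 and 3672 CPM in WT. Of these 9 genes edgeR called 1 lower (Hlf), 5 lay below both WT libraries and 2 had a log2 fold change above 0. The summed genes of erythroid cells were at 1952 and 2779 CPM in NHD13 and 3872 and 4374 CPM in WT. Those of megakaryocytes were at 794 and 1153 CPM in NHD13 and 1660 and 1576 CPM in WT. Macrophage and dendritic cell genes summed to 62.9 and 42.9 CPM in NHD13 and 19.96 and 20.01 CPM in WT. Of the 8 tested, only 3 had a log2 fold change above 0, with a list median of -0.25. EdgeR called 1 of them, Cd68, which was higher in NHD13. B cell genes summed to 92.7 and 99.2 CPM in NHD13 and 75.9 and 83.4 CPM in WT, and stromal genes to 119 and 141 CPM in NHD13 and 152 and 109 CPM in WT.

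The basophil gene Enpp3 had 7 and 15 counts in NHD13, against 830 in WT library 1 and 0 in WT library 2. WT library 1 is also the library in which Prss34 and Mcpt8 were highest. The other members did not share this pattern. Between the WT libraries, Fcer1a, Ms4a2, Fcer1g, Hdc and Il4 were higher in library 2, and Cpa3, Il1rl1 and Mitf in library 1. Eosinophil genes were mixed. Of 8 such genes 6 (Epx, Prg2, Prg3, Ear1, Ear2 and Ear6) were highest in WT library 2, while Siglec5 and Il5ra were higher in both NHD13 libraries than in either WT library. Epx, the eosinophil peroxidase, had 1 and 0 counts in NHD13, against 4 in WT library 1 and 2200 in WT library 2, and the 8 genes summed to 147 and 223 CPM in NHD13 and 5.20 and 393 CPM in WT, mostly Prg2 at 133 and 215 CPM in NHD13 and 3.26 and 287 CPM in WT, with 0 of 6 tested called by edgeR, 2 at an unadjusted p under 0.05 and 3 called by DESeq2. Hdc was higher in WT library 2 than in WT library 1. The part of eosinophil genes in the Hdc values was not tested.

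**Figure D4:**
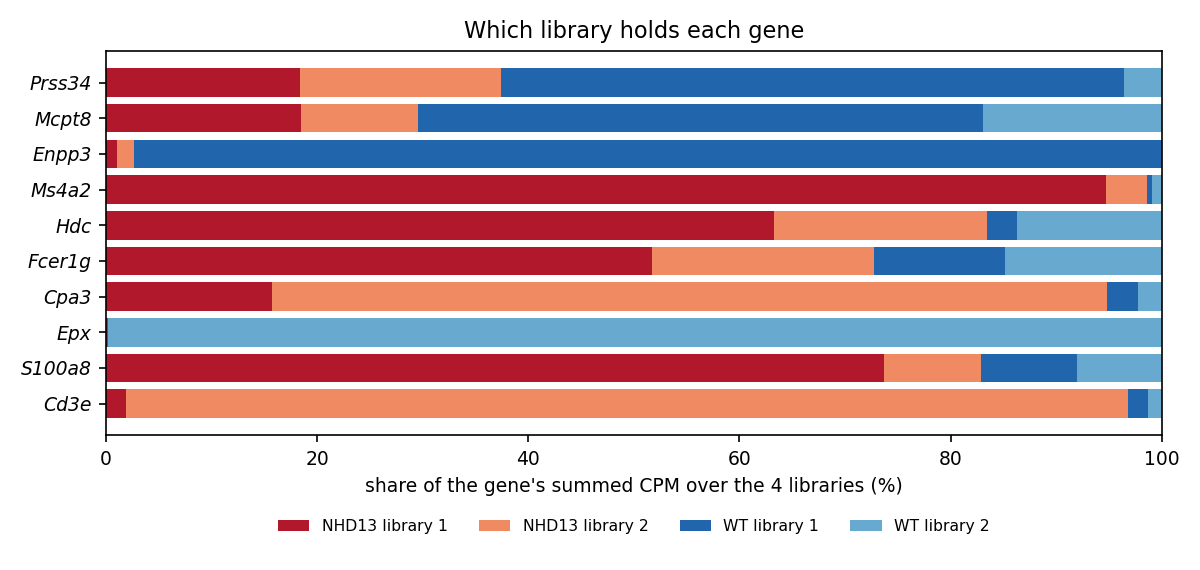
Share of each gene's summed CPM over the 4 libraries, in percent, by library, for members and for marker genes chosen after their values were seen. NHD13 library 1 held 94.8 percent of Ms4a2, NHD13 library 2 held 79.1 percent of Cpa3, WT library 1 held 97.4 percent of Enpp3 and WT library 2 held 99.8 percent of Epx.

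Proteases that define tissue mast cells were absent or nearly so. Of 15 further granule genes 5 passed the filter. The chymase genes Cma1, Cma2, Mcpt2 and Mcpt9 had 0 counts in all 4 libraries, which allows at most 0.0612 to 0.0873 CPM per library, a limit that covers counting error only. Mcpt4 had 1 count in NHD13 and 0 in WT, and Mcpt1 had 0 in NHD13 and 1 in WT. The tryptase genes Tpsb2 and Tpsab1 had at most 3 counts in any library, and Tpsg1 had 2 and 14 counts in NHD13 and 3 and 0 in WT. Cpa3 at 107 CPM in NHD13 library 2 was therefore measured with these chymase genes, Tpsb2 and Tpsab1 at or near 0. Another granule protease gene, Gzmb, was high in that library, at 0.873 and 30.3 CPM in NHD13 and 0.184 and 0.109 CPM in WT (adjusted p 0.118 by edgeR, 0.00386 by DESeq2). Slc18a2, the transporter that packs histamine into granules, fell by 1.26 ± 0.10 (SE) on the log2 scale, to 111 and 116 CPM in NHD13 against 256 and 286 CPM in WT (edgeR adjusted p 0.0136). Ctsg, a protease of mast cells and also of neutrophils, rose to 28.1 and 14.2 CPM in NHD13 against 2.25 and 3.28 CPM in WT (adjusted p 0.0389, or 0.0538 with transcripts summed and 0.0652 by limma-voom). Srgn, the granule proteoglycan, was at 1488 and 1138 CPM in NHD13 and 914 and 912 CPM in WT (adjusted p 0.106).

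Taking 7 lists of related genes, 97 genes other than the members were tested by edgeR and 13 were called, 8 higher and 5 lower, or 13.4 percent against 4.28 percent of all genes. The median log2 fold change was 0.19 over these genes and 0.00 over all genes tested. DESeq2 called 41, beside 17.5 percent of all genes. With either WT library left out edgeR called 0 of the 97. Without WT library 1, DESeq2 called 19, beside 6.29 percent of all genes, and 28 had an edgeR unadjusted p under 0.05, beside 15.4 percent of all genes. Without WT library 2, DESeq2 called 20, beside 6.69 percent, and 27 had such an unadjusted p, beside 16.3 percent. EdgeR called 4 without NHD13 library 1, beside 1.69 percent of all genes, and 24 without NHD13 library 2, beside 6.35 percent. Clec4e and Slc18a2 were the 2 of the 13 calls that remained without NHD13 library 1, and 8 of the 13 remained without NHD13 library 2. All 13 kept their direction in these fits, which share libraries with the fit that chose them.

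Among 20 genes of IgE receptor signalling 2 were called higher and 0 lower, with a median log2 fold change of 0.22. Fyn, a kinase that acts just below the receptor, rose to 27.4 and 28.3 CPM in NHD13 against 14.4 and 12.6 CPM in WT (log2 fold change 1.05 ± 0.15, edgeR adjusted p 0.0373). The adaptor Lat rose to 105 and 99.6 CPM in NHD13 against 63.5 and 64.5 CPM in WT (0.68 ± 0.09, adjusted p 0.0349). Its relative Lat2, the adaptor of mast cells and B cells, was at 179 and 49.4 CPM in NHD13 and 6.67 and 5.58 CPM in WT, with an adjusted p of 0.0501 by edgeR and 1.04e-05 by DESeq2.

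A list of 12 genes was drawn up for shared users of Fcer1g, but not all of them are receptors that signal through the gamma chain. Of these, 10 were tested and 2 were called, both higher. In all, 9 had a log2 fold change above 0, with a median log2 fold change of 2.66. Clec4e, a receptor for mycobacterial lipid, rose to 148 and 59.2 CPM in NHD13 against 6.76 and 4.73 CPM in WT (4.17 ± 0.52, edgeR adjusted p 0.0318, or 0.112 without a filter on low counts and 0.0636 by limma-voom). Clec4d rose to 13.7 and 9.53 CPM in NHD13 against 3.13 and 2.71 CPM in WT (1.99 ± 0.29, adjusted p 0.0390). Fcgr3, a low-affinity IgG receptor, was at 22.2 and 8.31 CPM in NHD13 and 1.86 and 2.11 CPM in WT (adjusted p 0.0553). For these genes, as for Fcer1g, NHD13 library 1 was above library 2. The summed neutrophil genes given above differed the same way between the NHD13 libraries, and their part in these values was not tested.

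Surface receptors of mast cells and basophils moved in both directions. Of 21 tested, edgeR called 2 higher and 3 lower. In all, 14 had a log2 fold change above 0, and the median was 0.58. The activation marker Cd69 rose to 410 and 258 CPM in NHD13 against 19.6 and 37.5 CPM in WT (3.55 ± 0.41, edgeR adjusted p 0.0275, or 0.0886 without a filter on low counts). Itgb7, the integrin chain used by mast cell progenitors to enter the gut, rose to 39.1 and 37.3 CPM in NHD13 against 13.7 and 11.9 CPM in WT (1.58 ± 0.14, adjusted p 0.0180). The inhibitory receptor Cd200r1 fell by 1.42 ± 0.14 to 16.7 and 18.2 CPM in NHD13 against 44.2 and 49.7 CPM in WT (adjusted p 0.0192). Il1rap, the partner chain of Il1rl1, fell to 20.2 and 23.2 CPM in NHD13 against 38.4 and 43.7 CPM in WT (adjusted p 0.0454), a call lost with library totals and with transcripts summed. Cd63, a granule membrane protein, fell to 309 and 281 CPM in NHD13 against 499 and 514 CPM in WT (adjusted p 0.0282).

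Of 18 transcription factors tested 1 was called, Bhlhe40, which regulates cytokine genes in T cells. It fell by 1.80 ± 0.27 to 33.7 and 30.7 CPM in NHD13 against 141 and 82.8 CPM in WT (edgeR adjusted p 0.0415, or 0.0519 with library totals and 0.0583 with transcripts summed). Tfec, a relative of Mitf, was at 18.4 and 27.5 CPM in NHD13 and 43.7 and 51.1 CPM in WT (adjusted p 0.0743), and Ikzf1 was at 206 and 176 CPM in NHD13 and 125 and 135 CPM in WT (adjusted p 0.0689). The list median was -0.04. The GATA factor gene Gata2 was at 399 and 292 CPM in NHD13 and 223 and 230 CPM in WT, with an adjusted p of 0.105.

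Of 10 genes tested for histamine and lipid mediator synthesis edgeR called 0, with 6 at an unadjusted p under 0.05 and 4 called by DESeq2, and a median log2 fold change of -0.40. Alox5, which begins leukotriene synthesis, was at 10.4 and 7.18 CPM in NHD13 and 2.55 and 3.17 CPM in WT (adjusted p 0.0625). Maob, an amine-degrading enzyme, was at 0.0582 and 0.224 CPM in NHD13 and 1.89 and 1.51 CPM in WT (adjusted p 0.0709). Among 14 tested genes of cytokines and interleukin 33 signalling 1 was called, with a median of 0.12. It was Il2rg, the common chain of the interleukin 4 receptor and others, which rose to 350 and 365 CPM in NHD13 against 219 and 249 CPM in WT (0.61 ± 0.10, adjusted p 0.0474, or 0.0508 with a non-robust fit, 0.0563 with every transcript fitted and 0.0627 with transcripts summed). Il13ra1, a chain of the interleukin 13 receptor, was at 5.15 and 5.14 CPM in NHD13 and 2.18 and 1.64 CPM in WT (adjusted p 0.0790), and Tnf was at 4.05 and 3.98 CPM in NHD13 and 2.32 and 1.26 CPM in WT (adjusted p 0.170). Il13, the neighbour of Il4 in the type 2 cytokine cluster, had 0 counts in every library, and Il5 had at most 0.184 CPM.

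**Figure D5:**
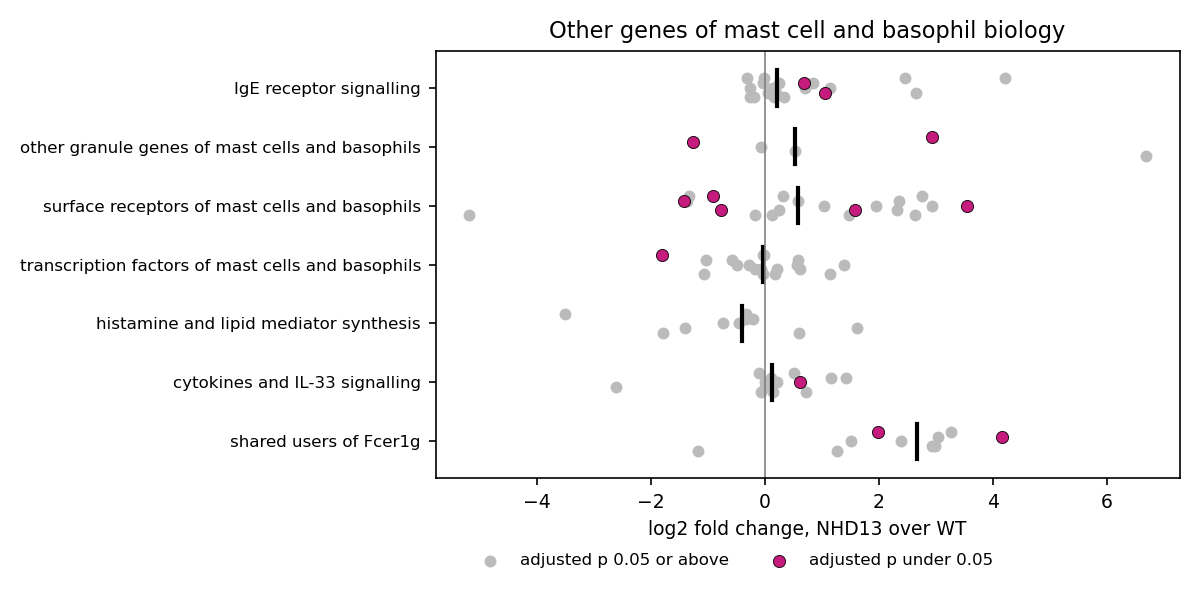
Log2 fold change of NHD13 over WT for genes of 7 related lists, with called genes in magenta and a black bar at each list's median. The list of shared Fcer1g users, not all of them gamma-chain receptors, has the highest median, 2.66, and the synthesis genes the lowest, -0.40.

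The genes whose pattern over the 4 libraries lay closest to a member were found from log2(CPM + 0.1) centred on each gene's mean, by Euclidean distance among 14853 genes. Nearest to Il4 were Ripply3 (distance 0.284), Il1rapl2 (0.290) and Pkhd1l1 (0.316). Ripply3 was at 0.146 and 0.306 CPM in NHD13 and 7.73 and 6.57 CPM in WT. Nearest to Fcer1a were Fxyd1 (0.488), Lhcgr (0.488) and H2-Aa (0.491). Fcer1a itself was at 0 and 0.0204 CPM in NHD13, below the 0.1 CPM added, so that addition in part set its pattern. Lhcgr, a hormone receptor gene, was at 5.38 and 7.27 CPM in NHD13 and 88.2 and 115 CPM in WT. Nearest to Ms4a2 were Sstr1 (0.602), Kcnc1 (0.725) and Kif26b (0.757), and Sstr1, a somatostatin receptor gene, was at 46.2 and 1.04 CPM in NHD13 and 0.115 and 0.192 CPM in WT. With 4 libraries many genes share such a pattern, so nearness describes these libraries only.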

How the data were processed

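The labels' protocols give Trizol extraction, a SMARTer low-input amplification kit and paired-end Illumina sequencing. Alignment used Bowtie 0.12.2 and mouse build mm9, both from the submitters' processing notes. The authors deposited raw whole-number counts for each RefSeq transcript, with no scaling. Which program counted the reads, and how it treated strand and multiple alignments, is not given in the sources used here. Each table held 33018 transcripts of 24016 symbols. Transcripts of the same gene could hold nearly equal counts, as for Ms4a2 and Mitf, as if reads of shared exons entered each of them. Therefore 1 transcript per gene was kept, that with the highest total. Several transcripts existed for 4 members, and no member's counts equalled another symbol's.

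EdgeR 4.0.16 under R 4.3.3 was used with its default filter, TMM scaling and the robust quasi-likelihood test, comparing NHD13 with WT over the 4 libraries. P-values were adjusted by Benjamini-Hochberg and called under 0.05. The procedure was tested on simulated data. CPM use TMM-scaled totals, and an SE is the absolute log2 fold change over the square root of F. Libraries of a group varied more than counting noise (mean chi-square for a gene, 1 degree of freedom, 61.6 in NHD13 and 33.8 in WT). Alternatives were DESeq2 1.42.0, limma-voom (limma 3.58.1), other scalings, filters and thresholds, fitting without robustness, a replicate block, summed or separate transcripts, and leaving out each library. Transcript lengths and exons come from GENCODE M21 and promoters from RefSeq (GRCm38.p6), with no coordinate carried over to mm9.

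The members and lists were chosen with earlier results of these data known. From each related list up to 3 genes with the smallest adjusted p were named, or 2 where none was called, and for Fcer1a, Ms4a2 and Il4 the 3 genes nearest in pattern. S100a8, Cd3e, Enpp3, Epx, Prg2, Siglec5, Il5ra, Elane, Mpo, Nkg7, Klrb1c, Cd3g, Il7r, Gata2, Kit, Slamf1, Il1rap, Cd63, Cd8a, Il13 and Il5 and the chymase and tryptase genes were named after their values were seen. So were Ly6a, Cd34, Flt3, Hlf, Cd68 and Gzmb.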

Additional observations from a re-analysis of the deposited data

How the results depend on the processing

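Counts of calls depended strongly on the fit. For all genes the 636 calls became 1138 without a filter on low counts, 1066 with 1 CPM in both libraries of a group, 2604 by DESeq2, 402 with transcripts summed, 1923 at an adjusted p under 0.1 and 47 under 0.01. With 1 library left out edgeR called 0 to 990 genes and DESeq2, added after seeing the data, 955 without WT library 1, 1067 without WT library 2, 1287 without NHD13 library 1 and 2366 without NHD13 library 2. The 2 called members became 1 with library totals only, with 1 CPM in both libraries of a group (where Fcer1a was not tested) and with transcripts summed, 6 by DESeq2 and 0 at an adjusted p under 0.01, and numbered 0 to 4 by edgeR and 3 to 6 by DESeq2 with 1 library left out. The 13 called genes of the related lists became 41 by DESeq2, 26 at an adjusted p under 0.1 and 0 under 0.01, and numbered 0 to 24 by edgeR and 19, 20, 26 and 39 by DESeq2, in the same order. Among the members and the list genes named for their adjusted p, only Prss34 reversed direction. It was at 0.24 by limma-voom, 0.30 with the replicate block and 0.25 with crossed numbers. Without WT library 1 it was at 2.39 by edgeR and 2.40 by DESeq2, and without WT library 2 DESeq2 gave -1.66. Genes named after their values were seen, such as Enpp3, were not followed across the fits in this way. The cause of these changes was not tested.

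The labels name nothing but the number that libraries with the same replicate number share. Their deviations from the group means had a correlation of -0.21. With 2 libraries per group this value takes the opposite sign when the numbers are crossed, so it cannot show whether libraries were paired. With the replicate number as a block edgeR called 107 genes, 1 member (Il4) and 2 genes of the related lists. With the numbers crossed, a pairing chosen after seeing the data, it called 647 genes, 2 members (Il4 and Hdc, not Fcer1a) and 11 genes of the related lists. At these depths a level under 0.0612 to 0.0873 CPM, or 3 counts, was not detectable, which limits Fcer1a in NHD13.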
